A study of Homo sapiens with 6 samples.

Results

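The genes described here encode the semaphorins of vertebrates, which are secreted or membrane-bound guidance ligands, and their plexin and neuropilin receptors. A gene was included when the only symbol annotated to its probe was SEMA3 to SEMA7 followed by a letter, a PLXN symbol, NRP1 or NRP2. The rule found 30 of the 18417 genes with a single symbol: 19 semaphorins, 9 plexins and 2 neuropilins. Where several probes carried a symbol, the one brightest on average stood for the gene, so measured brightness chose the probe. The family was taken up because SEMA7A was already known to be among the largest rises in these data, and its change is therefore given as a description, without a test.

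Semaphorins share an extracellular sema domain and signal mainly through plexins, transmembrane receptors whose cytoplasmic part acts on small GTPases and, through them, on integrin adhesion and actin. Class 3 semaphorins are secreted and mostly need a neuropilin as the ligand-binding partner of an A-type plexin, while classes 4 to 6 span the membrane and SEMA7A is held at the surface by a lipid anchor. Neuropilins also bind VEGF, and in lung tumours members of the family have been studied as regulators of invasion, vessel growth and immune cells.

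The cells were H441, a human lung adenocarcinoma line. They received SMARTpool siRNA by lipid transfection, either a scrambled control or one against ETS2, a transcription factor of the ETS family. RNA was taken after 48 h, and each group held 3 arrays, which the labels number as biological replicates. Both groups thus went through transfection with siRNA, and all arrays come from a single cell line, and the labels do not say whether replicates were transfected separately, so the p-values measure only the spread between these samples. The labels give no age, genotype or further treatment, and the cells were compared at a single time.

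Levels are log2 values from RMA, a method that summarises the probes of an array, and every difference is ETS2 siRNA minus control siRNA. ETS2 itself read 9.79, 9.91 and 9.79 on the control arrays and 8.87, 8.70 and 8.78 after ETS2 siRNA, a difference of -1.05. Of 10 markers of lung epithelium, 8 lay above a background floor of 6.67, a log2 level set from olfactory receptor genes, and the alveolar and club cell markers SFTPC and SCGB1A1 did not. The epithelial list had a mean level per array of 11.23 to 11.25 in control cells and 11.20 to 11.23 after ETS2 siRNA, and its 1 called gene, the surfactant gene SFTPB, fell by 0.36 (adjusted p = 0.0077). In bulk RNA, fewer cells expressing a gene and less RNA per cell cannot be told apart.

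Of the 29 genes other than SEMA7A, 4 changed at an adjusted p under 0.05 (13.8%). Over all genes tested, 4.91% were called, 2.28% higher and 2.63% lower. Among all genes above the floor the share called was 6.79%, and 22 of the 29 genes lay above it. NRP2 was higher, and SEMA3E, SEMA4A and SEMA4F were lower after ETS2 siRNA. SEMA7A was higher too, by the rise that chose the family, and is not counted here. The plexins held 0 called genes among 9 by limma, with 1 at an unadjusted p under 0.05, a threshold passed by 18.5% of all genes. The median difference of these 29 genes was -0.01, against 0.00 over all genes, and the median absolute difference was 0.05 for both. The groups did not overlap for 7 of the 29 genes (24.1%), close to the 23.1% found over all genes.

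**Figure D1:**
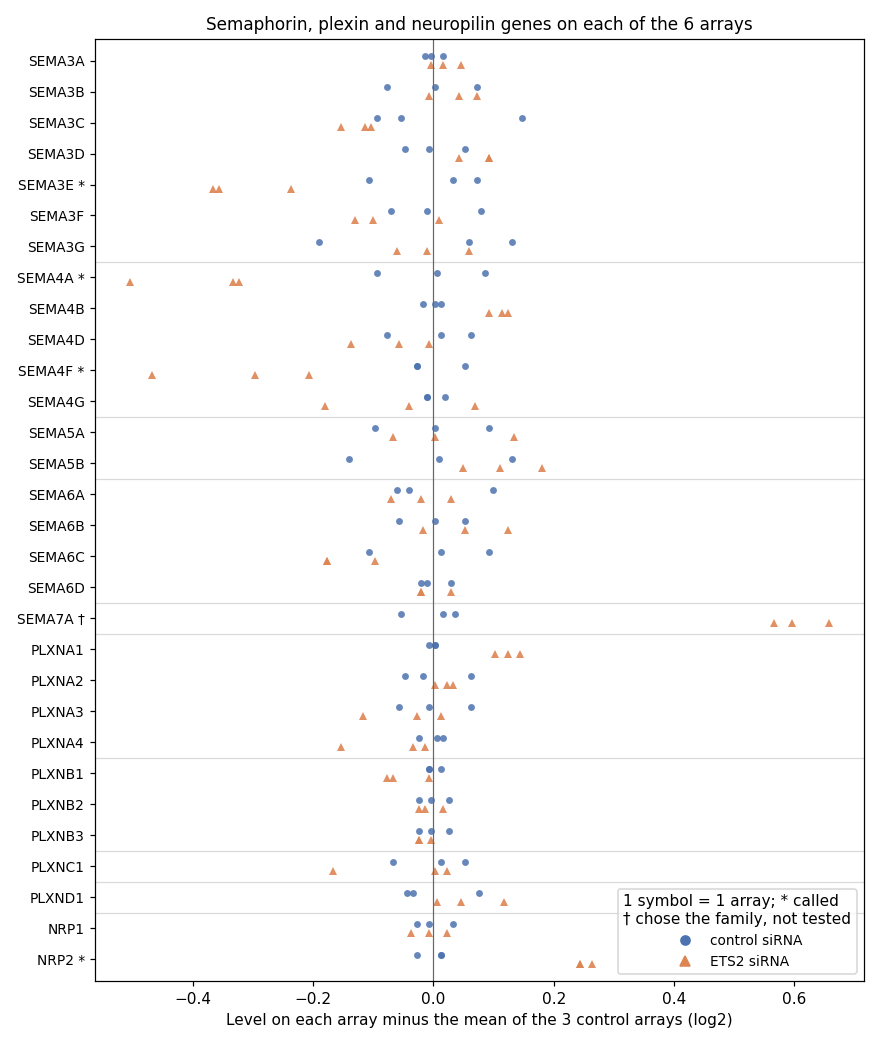
Level of each of the 30 genes on each array, given as the difference in log2 from the mean of the 3 control arrays (horizontal axis), with circles for control siRNA and triangles for ETS2 siRNA. Genes are grouped by class an asterisk marks the 4 called genes and a dagger SEMA7A, which was not tested. The triangles of SEMA7A and NRP2 lie to the right of all circles, those of SEMA3E, SEMA4A and SEMA4F to the left, and the other 25 genes stay within 0.2 of 0.

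Among all 30 genes, SEMA7A had the largest difference. SEMA7A is a membrane-anchored semaphorin that binds plexin C1 and integrins containing the beta-1 chain. Its level was 11.38, 11.31 and 11.40 in control cells and 11.93, 11.96 and 12.02 after ETS2 siRNA. All arrays of the ETS2 siRNA group lay above all control arrays. The means were 11.36 ± 0.05 and 11.97 ± 0.05 (SD, n = 3), a difference of 0.61, or 152% of the control level. Because this rise chose the family, these values describe that choice and are not evidence for it. The probe was well above the floor in both groups.

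Both kinds of SEMA7A receptor could be read in part. PLXNC1, which encodes the plexin of SEMA7A, read 6.70, 6.66 and 6.58 in control cells and 6.65, 6.67 and 6.48 after ETS2 siRNA. Its group means of 6.65 and 6.60 lay just below the floor, where signal cannot be told from background. The difference of PLXNC1 was -0.05 (interval -0.19 to 0.09), which does not show whether this transcript changed. ITGB1, the beta-1 integrin chain, read 11.14, 11.02 and 11.05 in control cells and 11.23, 11.33 and 11.31 after ETS2 siRNA. The groups of ITGB1 did not overlap, and it rose by 0.22 (SE 0.0482, adjusted p = 0.0414). That call was lost with any single array left out, with differences from 0.20 to 0.26 and adjusted p between 0.052 and 0.156. ITGA1, the alpha-1 chain that pairs with it in a collagen receptor, was not analysed here.

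Beside SEMA7A, NRP2 rose. It encodes neuropilin-2, a co-receptor for class 3 semaphorins such as SEMA3F and for VEGF-C. NRP2 read 9.94, 9.98 and 9.98 in control cells and 10.23, 10.21 and 10.21 after ETS2 siRNA. The groups did not overlap, and the arrays of each lay close together. The difference was 0.25 (SE 0.0365, 95% interval 0.17 to 0.33, adjusted p = 0.00988), from 9.97 ± 0.02 to 10.22 ± 0.01 (SD, n = 3). Without ETS2 siRNA replicate 2 or replicate 3 the difference stayed at 0.25, with adjusted p of 0.0502 and 0.0538.

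A second probe annotated to NRP2 alone moved further. It was dimmer than the probe used for the gene, and the annotation ties it to cDNA clone records, not to the curated NRP2 transcripts. Its levels were 9.13, 9.03 and 9.14 in control cells and 9.68, 9.81 and 9.77 after ETS2 siRNA. Again all arrays of the ETS2 siRNA group were the higher ones. The difference was 0.65 (SE 0.0506, 95% interval 0.54 to 0.77, adjusted p = 0.00087 when all probes were tested on their own), and the mean over both probes differed by 0.45. Within arrays, the change of this probe exceeded that of the probe used for the gene by 0.40, with an exact permutation p of 0.1 (two-sided, the smallest that 3 against 3 arrays can give).

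NRP1, the paralogue that binds SEMA3A and VEGF-A, did not follow NRP2. Its levels were 10.78, 10.82 and 10.76 in control cells and 10.78, 10.81 and 10.75 after ETS2 siRNA, and the groups overlapped fully. The difference of -0.0067 had a 95% interval from -0.10 to 0.08. Within arrays NRP2 changed by 0.26 more than NRP1 (exact permutation p = 0.1, two-sided, the smallest possible). This was 1 of 5 within-array pairs, all picked after their values were seen and each with an exact p of 0.1, also after Benjamini-Hochberg adjustment over the 5. The groups did not overlap in any of these pairs, so picking them fixed that p, and neither it nor its adjustment is evidence. The pair not described elsewhere, SEMA7A against PLXNC1, holds the gene that chose the family and is not read as a test.

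**Figure D2:**
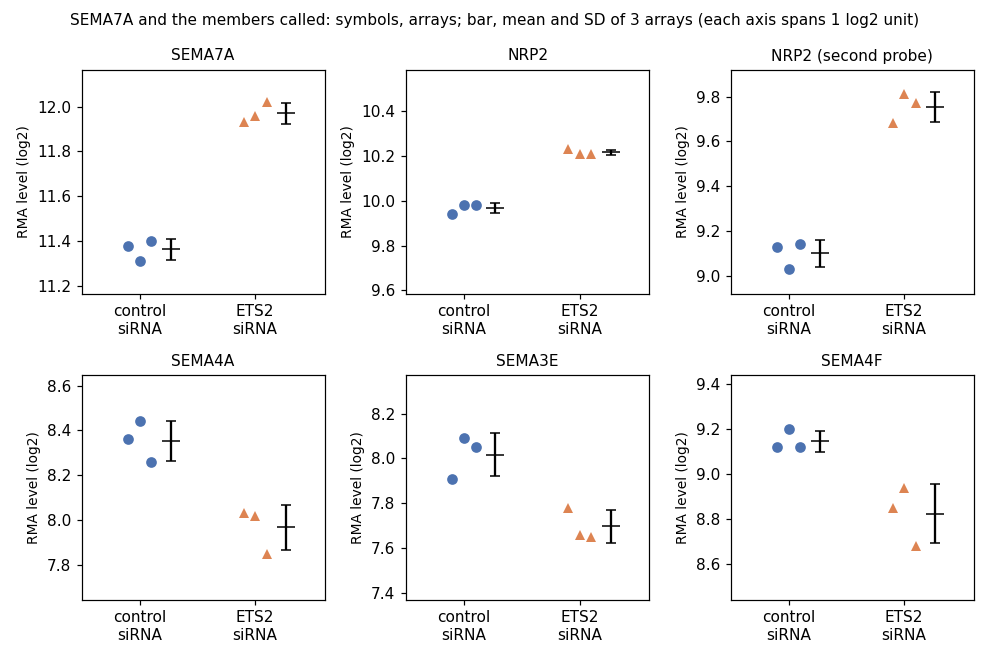
RMA level in log2 on each array for SEMA7A, the 4 called genes and the second probe of NRP2, with circles for control siRNA, triangles for ETS2 siRNA and a bar for mean and SD of 3 arrays. Every vertical axis spans 1 log2 unit, so the distances can be compared between panels, but the levels of different probes cannot. SEMA7A and the second probe of NRP2 moved by 0.61 and 0.65, and the main probe of NRP2 by 0.25.

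SEMA4A fell most in the family. It is a transmembrane semaphorin that binds plexins of the B and D types and acts on T cells. SEMA4A read 8.36, 8.44 and 8.26 in control cells and 8.03, 8.02 and 7.85 after ETS2 siRNA. All control arrays lay above all arrays of the other group, and replicate 3 was the lowest in both. The difference was -0.39 (SE 0.0651, 95% interval -0.54 to -0.24, adjusted p = 0.0159), which left 76.5% of the control level. Its adjusted p was 0.0618 without control replicate 1, 0.051 without ETS2 siRNA replicate 2 and 0.0622 without ETS2 siRNA replicate 3, at differences of -0.38, -0.41 and -0.33.

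SEMA4F, another transmembrane class 4 semaphorin, read 9.12, 9.20 and 9.12 in control cells and 8.85, 8.94 and 8.68 after ETS2 siRNA. Again all control arrays were the higher ones, and the ETS2 siRNA arrays spread more widely. It fell by 0.32 (SE 0.0666, 95% interval -0.48 to -0.17, adjusted p = 0.0329), from 9.15 ± 0.05 to 8.82 ± 0.13 (SD, n = 3). The call held in 1 of the 6 fits with an array left out, the one without ETS2 siRNA replicate 2. In the others, without any control replicate or ETS2 siRNA replicate 1 or 3, the adjusted p lay between 0.0815 and 0.0922 and the differences between -0.34 and -0.25.

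The other class 4 genes read here, SEMA4B, SEMA4D and SEMA4G, were not called. SEMA4C was not among the genes that the rule found. SEMA4B read 11.36, 11.39 and 11.38 in control cells and 11.49, 11.50 and 11.47 after ETS2 siRNA, groups that did not overlap. Its difference of 0.11 (SE 0.036) had an adjusted p of 0.14 in the main setting. Modelling the variance with an intensity trend turned it into a call (adjusted p = 0.0136). SEMA4D, the ligand of plexin B1, differed by -0.07 with an interval from -0.19 to 0.05, and SEMA4G by -0.05 with an interval from -0.19 to 0.09. A dimmer second probe of SEMA4D, with means of 6.08 and 6.04, lay below the floor and differed by -0.04. SEMA4A changed by -0.50 relative to SEMA4B within arrays (exact permutation p = 0.1, two-sided, the smallest possible).

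Of the secreted class 3 semaphorins, SEMA3E fell. SEMA3E differs from most of its class in binding plexin D1 directly, without a neuropilin. It read 7.91, 8.09 and 8.05 in control cells and 7.78, 7.66 and 7.65 after ETS2 siRNA. The groups did not overlap, and the arrays nearest to each other were the replicate 1 of each. The difference was -0.32 (SE 0.0595, 95% interval -0.46 to -0.18, adjusted p = 0.0224), to 80.1% of the control level. The call was lost without control replicate 2 or 3 or ETS2 siRNA replicate 2 or 3, with adjusted p from 0.0555 to 0.107 and differences from -0.30 to -0.28.

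PLXND1, which encodes the receptor of SEMA3E, read 9.05, 9.16 and 9.04 in control cells and 9.20, 9.13 and 9.09 after ETS2 siRNA. Those groups overlapped, and the difference of 0.06 had an interval from -0.06 to 0.17.

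SEMA3A, the collapsin that acts through NRP1 and A-type plexins, was well above the floor and gave 12.05 ± 0.02 and 12.07 ± 0.03 (SD, n = 3). Its difference of 0.02 had an interval from -0.06 to 0.10, and within arrays SEMA3E changed by -0.34 relative to SEMA3A (exact permutation p = 0.1, two-sided, the smallest possible). SEMA3C, a ligand of both neuropilins, read 8.67, 8.87 and 8.63 against 8.57, 8.62 and 8.61. Its groups barely failed to overlap, and its difference of -0.12 was not called (adjusted p = 0.366). SEMA3F, the best known semaphorin ligand of NRP2, differed by -0.07 (interval -0.20 to 0.05), SEMA3B by 0.04 (interval -0.08 to 0.15) and SEMA3G by -0.0033 (interval -0.19 to 0.18). SEMA3D was below the floor, at 4.84 and 4.91.

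The transmembrane classes 5 and 6 held 0 called genes among 6 by limma, with SEMA6C at an unadjusted p under 0.05. SEMA6C, a ligand of A-type plexins, averaged 7.18 ± 0.10 on the control arrays and 7.03 ± 0.05 on those of ETS2 siRNA (SD, n = 3). The groups overlapped, since the highest ETS2 siRNA array, at 7.08, lay above the lowest control array, at 7.07. The difference of -0.15 had an adjusted p of 0.2. SEMA5B differed by 0.11 (interval -0.05 to 0.27) and SEMA6B by 0.05 (interval -0.06 to 0.17). SEMA5A, a ligand of plexin B3, and SEMA6A and SEMA6D, ligands of A-type plexins, were below the floor in both groups.

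Among the plexins, PLXNA1 came closest to a call. It encodes a signalling receptor that pairs with neuropilins and also binds SEMA6D. PLXNA1 read 10.48, 10.48 and 10.47 in control cells and 10.62, 10.58 and 10.60 after ETS2 siRNA. The groups did not overlap, and the difference of 0.12 (SE 0.0359) had an adjusted p of 0.102. It was called with an intensity trend (adjusted p = 0.0173) and when genes below the floor were left out (adjusted p = 0.0499). PLXNA3, the plexin through which SEMA3F signals with NRP2, differed by -0.04 (interval -0.16 to 0.07), and PLXNA2 and PLXNA4 were below the floor.

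The B-type plexins gave small differences. PLXNB2, a receptor of class 4 semaphorins, read 11.86, 11.91 and 11.88 in control cells and 11.86, 11.90 and 11.87 after ETS2 siRNA. Its difference of -0.0067 had an interval from -0.09 to 0.08. PLXNB1, the receptor of SEMA4D and a partner of MET and ERBB2, differed by -0.05 (interval -0.14 to 0.04), and PLXNB3 by -0.02 (interval -0.10 to 0.07). For the 7 genes below the floor, PLXNA2, PLXNA4, PLXNC1, SEMA3D, SEMA5A, SEMA6A and SEMA6D, differences ran from -0.07 to 0.08. Their signals could not be told from background, so these values do not show whether the transcripts changed.

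**Figure D3:**
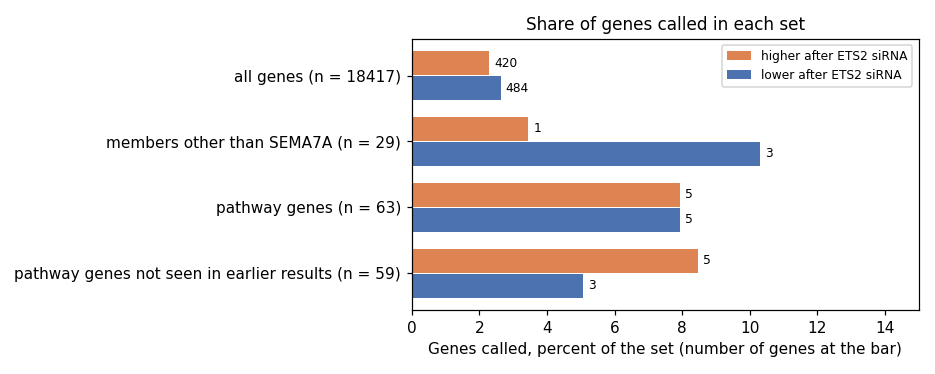
Share of genes called higher or lower after ETS2 siRNA (horizontal axis, percent of the set), with the number of genes at each bar. The sets are all genes, the 29 members other than SEMA7A, 63 genes of partners and effectors, and 59 of these. The 59 leave out MET, KDR, VEGFA and RAP1A. They are labelled as not seen in earlier results, though other earlier results of these data were known. All genes stand at 2.28% higher and 2.63% lower, and the family members other than SEMA7A at 3.45% and 10.3%.

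The sequences just before the transcription starts of SEMA7A and the 4 called genes are shown because ETS factors bind DNA around a GGAA core. They were taken from RefSeq's promoter table on GRCh38.p14, with the most upstream start of each gene and 250 bases before it, written 5′ to 3′ on the gene's strand. Capitals mark GGAA or its reverse complement TTCC.
SEMA7A, chr15:74433959-74434208, minus strand: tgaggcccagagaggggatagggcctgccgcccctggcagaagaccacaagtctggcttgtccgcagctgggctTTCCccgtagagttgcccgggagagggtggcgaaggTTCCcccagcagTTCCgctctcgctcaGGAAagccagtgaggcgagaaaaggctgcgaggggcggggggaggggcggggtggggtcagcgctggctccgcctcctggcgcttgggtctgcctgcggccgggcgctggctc
NRP2, chr2:205682251-205682500, plus strand: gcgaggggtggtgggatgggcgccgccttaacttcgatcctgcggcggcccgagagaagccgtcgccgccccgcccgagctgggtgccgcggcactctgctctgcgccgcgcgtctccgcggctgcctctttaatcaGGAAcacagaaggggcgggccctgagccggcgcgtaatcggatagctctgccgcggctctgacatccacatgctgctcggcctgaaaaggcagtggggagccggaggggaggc
SEMA4A, chr1:156149694-156149943, plus strand: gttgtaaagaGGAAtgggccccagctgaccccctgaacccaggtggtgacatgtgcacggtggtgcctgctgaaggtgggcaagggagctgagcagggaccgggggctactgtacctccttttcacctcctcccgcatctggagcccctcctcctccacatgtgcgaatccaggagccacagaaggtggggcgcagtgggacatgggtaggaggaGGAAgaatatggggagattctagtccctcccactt
SEMA4F, chr2:74653997-74654246, plus strand: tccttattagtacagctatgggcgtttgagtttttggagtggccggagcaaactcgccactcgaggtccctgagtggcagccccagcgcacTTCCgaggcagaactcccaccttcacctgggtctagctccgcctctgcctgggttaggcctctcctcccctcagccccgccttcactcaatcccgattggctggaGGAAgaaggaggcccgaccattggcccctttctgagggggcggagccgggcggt
SEMA3E, chr7:83649140-83649389, minus strand: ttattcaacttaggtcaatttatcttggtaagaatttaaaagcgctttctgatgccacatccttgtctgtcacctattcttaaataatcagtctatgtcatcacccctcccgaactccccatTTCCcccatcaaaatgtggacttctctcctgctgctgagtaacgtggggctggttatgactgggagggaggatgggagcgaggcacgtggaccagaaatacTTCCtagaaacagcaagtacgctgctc

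The window of SEMA7A held 4 cores on both strands together, 3 of them as TTCC, and that of NRP2 held 1. Those of SEMA4A, SEMA4F and SEMA3E held 2 each. Such a short core is common: 92.7% of all 35116 windows of this length hold at least 1, with a median of 3. Of the 30 genes, 26 were in the table, and 23 of these (88.5%) held a core. NRP1, SEMA3A, SEMA6A and SEMA6B were not in it. Each of the 26 was read at its most upstream start only, while the 35116 windows include several starts for some genes. Other starts of the 26 were not searched for the table of members, so the shares rest on unlike sets of windows. The longer ETS consensus CCGGAAG, searched on both strands and containing the core, was found in 1 of the 26, the window of PLXNB1, and in 8.52% of all windows. Its extension CCGGAAGT was found in 0 of the 26 and in 3.42% of all windows. A match or its absence describes these letters in these windows and says nothing of binding.

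Partners and effectors of the family were read from lists of co-receptors, VEGF ligands, GTPases with their regulators, cytoskeletal effectors with kinases, and proteases. Of 63 genes measured in the lists, 10 were called (15.9%), 5 higher and 5 lower, and their median difference was 0.01. The lists were drawn up with the values of MET, KDR, VEGFA and RAP1A known, and VEGFA and RAP1A are among the 10. Without these 4 genes, 8 of 59 were called (13.6%), 5 higher and 3 lower. Over all genes 4.91% were called, and 6.79% of those above the floor, where 48 of the 59 lay. Those 4 were not all the earlier results known, so the 59 are not independent of these data. Among 13 co-receptors ITGB1 was the 1 called gene. MET, which associates with B-type plexins, differed by -0.02 (interval -0.11 to 0.07) and ERBB2 by -0.08 (interval -0.18 to 0.02). KDR, the VEGF receptor that partners with neuropilins, read 9.75, 9.88 and 9.76 in control cells and 9.62, 9.66 and 9.56 after ETS2 siRNA. Its groups did not overlap, and its difference of -0.18 (SE 0.0499) had an adjusted p of 0.085.

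Of 4 VEGF ligands, 1 was called (25%), against 4.91% of all genes. The called gene was VEGFA, whose value was known when the list was drawn up. VEGFA, which binds NRP1 as well as KDR, read 12.26, 12.30 and 12.25 in control cells and 12.04, 12.05 and 12.03 after ETS2 siRNA, and fell by 0.23 (SE 0.0368, adjusted p = 0.0133). Both sets of arrays were tight and lay apart. Without ETS2 siRNA replicate 1, 2 or 3 its adjusted p was 0.0513, 0.0613 and 0.0708. VEGFC, a ligand of NRP2, differed by -0.02 (interval -0.15 to 0.10).

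GTPases and their regulators had 3 genes higher and 1 lower of 19 (21.1%). Over all genes 4.91% were called, and 6.79% of those above the floor, where 17 of the 19 lay. The value of RAP1A, the 1 lower gene, was known when the list was drawn up. RAP1B, a GTPase that activates integrins and is a substrate of the plexin GAP domain, rose by 0.31 (SE 0.0484, adjusted p = 0.0119). Its paralogue RAP1A, with the same biochemical role, fell by 0.26 (SE 0.0452, adjusted p = 0.0178). RAC1, which drives protrusion and binds plexins, read 12.45, 12.44 and 12.49 in control cells and 12.67, 12.75 and 12.70 after ETS2 siRNA, and rose by 0.25 (adjusted p = 0.0138). RND3, a GTPase that counters RHOA signalling, rose by 0.23 (adjusted p = 0.0173). RHOA itself differed by -0.02, with an interval from -0.10 to 0.06. ARHGEF11, the RHOA activator bound by B-type plexins, stood at -0.19 with an adjusted p of 0.0812.

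All of these 4 calls were lost in some fits with 1 array left out, each time including those without ETS2 siRNA replicate 2 and without replicate 3. RAP1B was also lost without control replicate 3, RAC1 without control replicate 1, RAP1A without control replicate 3 or ETS2 siRNA replicate 1, and RND3 without control replicate 1 or 3 or ETS2 siRNA replicate 1. The adjusted p reached at most 0.0659 for RAP1B, 0.0697 for RAC1 and 0.0788 for RAP1A and RND3.

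Cytoskeletal effectors and kinases had 1 gene higher and 3 lower of 21 (19%). The share called was 4.91% over all genes and 6.79% above the floor, where 20 of the 21 lay. LIMK1, the kinase that phosphorylates cofilin downstream of semaphorin receptors, read 10.78, 10.91 and 10.81 in control cells and 10.52, 10.40 and 10.39 after ETS2 siRNA. It fell by 0.40 (SE 0.0533, 95% interval -0.52 to -0.27, adjusted p = 0.00725), to 76% of the control level. PAK2, a kinase activated by RAC1 and CDC42 that acts on LIM kinases, read 11.26, 11.27 and 11.25 against 10.91, 10.85 and 10.89. It fell by 0.38 (SE 0.0373, adjusted p = 0.00187), and both LIMK1 and PAK2 were called under all 16 alternative settings. LIMK2 and the LIM kinase substrate CFL1 differed by -0.01 and 0.0067, with intervals from -0.11 to 0.09 and from -0.08 to 0.09.

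DPYSL3, of the family of collapsin response mediators that transmit SEMA3A signals to microtubules, rose by 0.29 (SE 0.0449, adjusted p = 0.0116). Its best known relative DPYSL2 differed by -0.08 (adjusted p = 0.289). GSK3B, a kinase of these mediators, fell by 0.18 (adjusted p = 0.0425), and CDK5, their priming kinase, stood at -0.16 (adjusted p = 0.0547). DPYSL3 was lost without ETS2 siRNA replicate 2 or 3 (adjusted p 0.0578 and 0.0645). GSK3B was lost with any array left out (up to 0.161) and with median-centred arrays (0.0575). Of the 6 proteases that process semaphorins, limma called 0, with 1 at an unadjusted p under 0.05, MMP14, which cleaves SEMA4D from the surface, at 0.17 (adjusted p = 0.1).

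**Figure D4:**
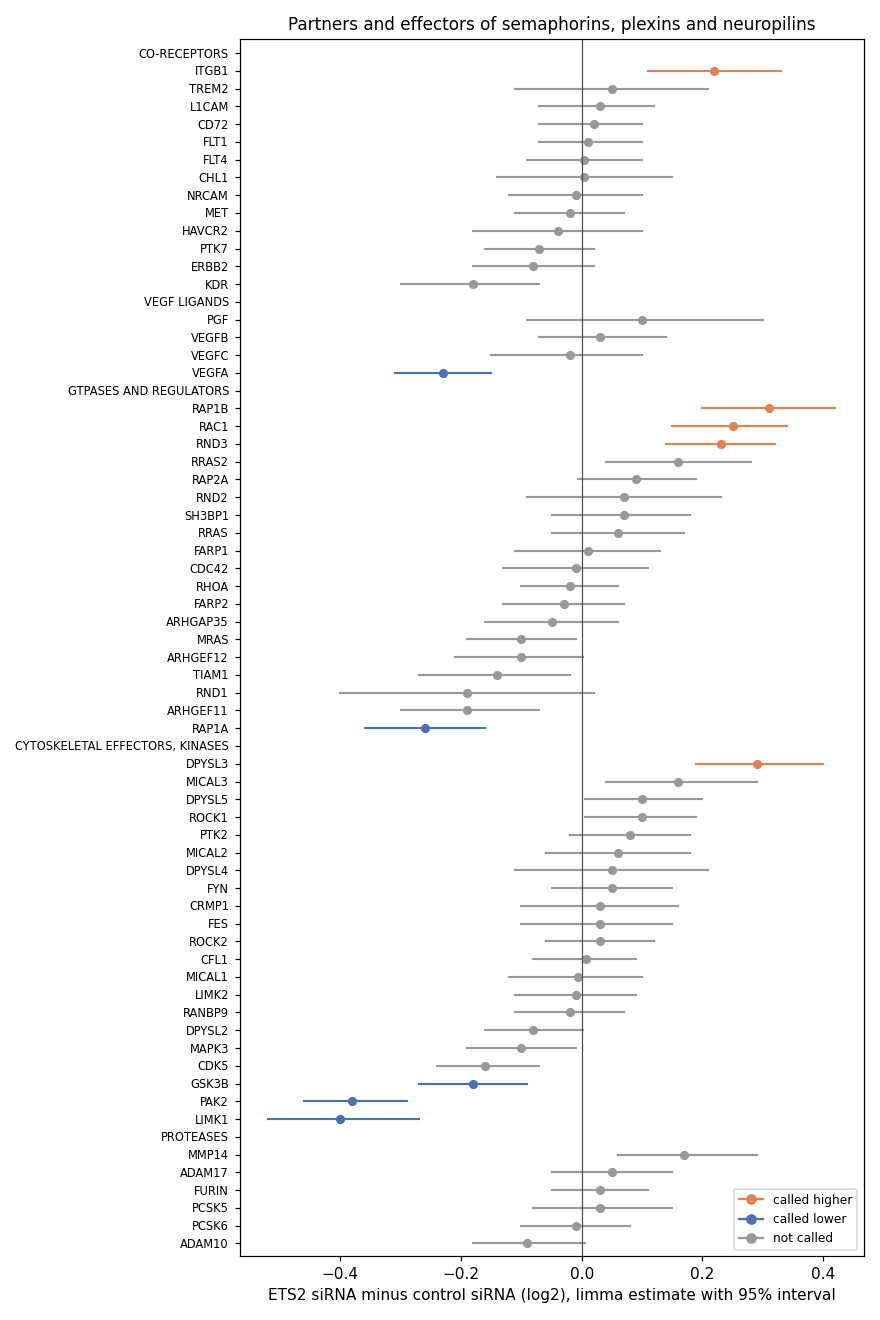
Difference between ETS2 siRNA and control siRNA (log2, horizontal axis) with its 95% interval from limma for the 63 partner and effector genes, grouped by role, with colour for genes called higher or lower and grey for those not called. LIMK1 and PAK2 lie lowest, at -0.40 and -0.38, and RAP1B and DPYSL3 highest, at 0.31 and 0.29.

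Semaphorin receptors are also markers of other cells, and such markers were read beside these results. Of 10 endothelial markers, 4 were above the floor (KDR, CLDN5, ESAM and ROBO4), while PECAM1, CDH5 and VWF were not. The mean level of all 10 ran per array from 6.73 to 6.78 in control cells and from 6.70 to 6.77 after ETS2 siRNA. Limma called 0 of the 10, with KDR and TEK at an unadjusted p under 0.05. Of 7 neuronal markers, 4 were above the floor (MAP2, NEFL, SYT1 and RBFOX3). The mean level of all 7 ran from 6.93 to 6.98 in control cells and from 6.80 to 6.89 after ETS2 siRNA, without overlap. Taken singly, 23.1% of all genes also showed no overlap between the groups. SYT1, a synaptic vesicle protein, was the 1 called gene of the 7 (14.3%, against 4.91% of all genes). It fell by 0.27 (adjusted p = 0.0312), while MAP2 and NEFM passed only an unadjusted p under 0.05. The SYT1 call was lost with any array left out (adjusted p 0.0526 to 0.133). Of 9 leukocyte markers, 4 were above the floor (CD68, ITGAM, CSF1R and CD14), and PTPRC, CD3E and MS4A1 were not. Of 9 fibroblast markers, 5 were above it in at least 1 group (LUM, COL1A1, COL3A1, COL1A2 and PDGFRB), and DCN and PDGFRA were not. Both lists had 0 called genes by limma, with 2 and 1 at an unadjusted p under 0.05. The mean level of the leukocyte list ran from 6.40 to 6.41 in control cells and from 6.34 to 6.41 after ETS2 siRNA, and the fibroblast list from 6.56 to 6.67 and from 6.61 to 6.66. The part of these markers in the results above was not tested.

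**Figure D5:**
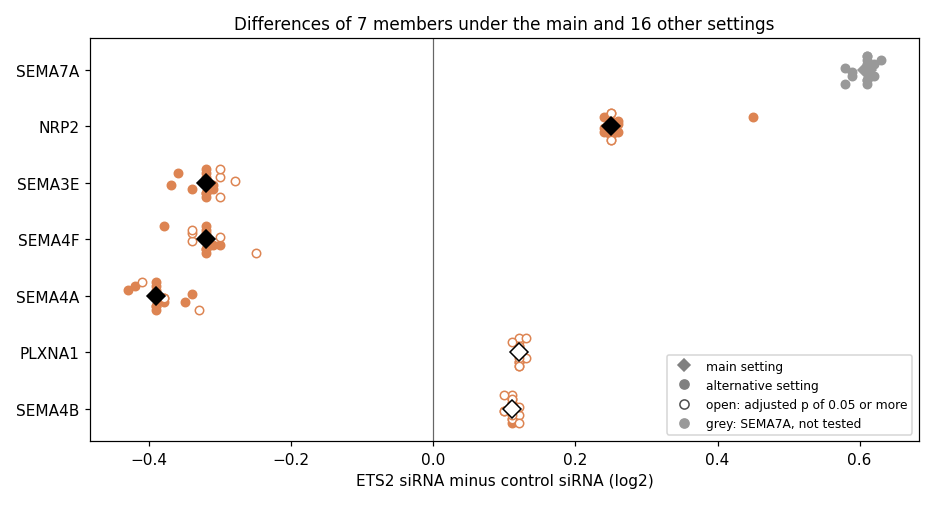
Difference in log2 (horizontal axis) of SEMA7A, the 4 called genes, PLXNA1 and SEMA4B under the main setting (diamonds) and 16 other settings (circles), filled where the adjusted p was under 0.05, with SEMA7A in grey since it was not tested. SEMA7A lies between 0.58 and 0.63, and the circle of NRP2 at 0.45 is the mean over its 2 probes.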

How the data were processed

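Per the submitters' processing notes the authors ran RMA, and the deposited values are log2 levels, 1 column per array. Which RMA settings were used is not given in the sources used here, nor is the genome build. RMA brings arrays to a common distribution, which removes shifts shared by all genes and compresses folds of dim genes. Of 33297 probes, 19460 carried 1 symbol in the platform annotation and stood for 18417 genes. All 30 members matched a current RefSeq gene record. The floor is the 95th percentile of the means of 341 olfactory receptor genes, and no gene was left out. The 2 groups were compared in limma 3.58.1 (R 4.3.3, lmFit and eBayes, two-sided), and p-values were adjusted by Benjamini-Hochberg across the whole gene table. The script was tested on simulated data. Precision is limited by having 3 arrays a group.

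The members and lists were chosen with earlier results of these data known, those of SEMA7A, VEGFA, RAP1A, KDR and MET among them. All members are named, with values per array for called members, for SEMA7A, its receptors, NRP1 and NRP2, and for members at an unadjusted p under 0.05 (SEMA6C by its means). Of partners, called genes are named by rule, and others after their values were seen. Alternatives were the replicate block, 3 rescalings, a filter on dim genes, 2 probe choices, 2 variance models, array weights and each array left out.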

Additional observations from a re-analysis of the deposited data

Results flagged for a closer look

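The second probe of NRP2, which the gene-level comparison does not use, gave a level 0.65 above that of control cells after ETS2 siRNA, on the log2 scale (SE 0.0506), with all 3 arrays of the ETS2 siRNA group above all control arrays. The probe used for the gene read 0.25. It is given here because a signal in values outside the main measurement exceeded the control level. The transcript that the second probe reads was not analysed here. The groups of 3 arrays were too small for a check on single outlying arrays.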

How the results depend on the processing

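The 4 called members kept their direction under all 16 alternatives, as did SEMA7A, whose rise chose the family. Their groups did not overlap, so leaving out 1 array could not reverse a direction. The kept directions are therefore not evidence for these changes. With an intensity trend 4 members were called higher and 17 partner genes were called, against 2 and 10. Counts of members called higher include SEMA7A, which supports nothing. With 1 array left out, members called higher ranged from 1 to 2, members called lower from 0 to 2, and partner genes called from 2 to 8. Fewer arrays were fitted there, and the calls over all genes fell too, from 904 to between 213 and 735. Those calls were 1963 with the intensity trend, 1480 with array weights and 1397 with genes above the floor only. The cause of the change with the intensity trend was not tested. Among the other 9 alternatives the counts of members and of partner genes stayed within 1.5 times the main ones. With the replicate number as a block, 2 members were called higher and 2 lower, with SEMA3E lost (adjusted p = 0.0677), and 8 partner genes were called, with ITGB1 and GSK3B lost (0.0939 and 0.0759). SYT1 was lost too (0.0718). Arrays with the same number correlated at 0.18, 0.18 and 0.04 in their deviations across genes, and control replicate 3 correlated more with ETS2 siRNA replicate 1 (0.07), so not every pair passed 0.1 and a pairing was not established. Of the members that were not called, at most 5 of 25 changed sign under any alternative.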
